A study of Mus musculus with 6 samples.

Results

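Transcripts of 10 circadian clock genes were measured in mouse hearts 3 days after a dose of 20 mg/kg doxorubicin. This anthracycline is given against cancer and is toxic to heart muscle. The genes were Arntl, Clock, Nr1d1, Nr1d2, Per2, Per3, Cry1, Cry2, Ciart and Dbp, chosen by name from the 35618 genes of the deposited count table, and all 10 were among the 16591 genes with enough counts to be tested. The hearts came from 2 groups of mice aged 6 to 8 weeks, each with 3 libraries. The first group lacked Gsdmd in heart muscle (GSDMD-CKO, here called knockout). In the second, both Gsdmd alleles carried loxP sites and were intact (GSDMD-FLOX/FLOX, here called floxed). All mice of both groups received doxorubicin by intraperitoneal injection and lived under a daily light/dark cycle. The labels name neither the Cre driver nor the hour at which each heart was collected, and hearts without doxorubicin were not analysed here. The labels do not tie libraries to animals, so p-values measure only the spread between these libraries, which may be technical.

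The mammalian clock is a feedback loop of transcription. CLOCK and BMAL1, the product of Arntl, bind E-box sequences as a dimer and switch on the Per and Cry genes, the nuclear receptor genes Nr1d1 and Nr1d2 (REV-ERB alpha and beta), Ciart and Dbp. PER and CRY proteins then repress CLOCK and BMAL1, the REV-ERB proteins repress Arntl through RORE sequences, and DBP carries the rhythm to further genes through D-box sequences. In a running clock, heart included, Arntl mRNA therefore peaks at nearly the opposite time of day from Nr1d1 and Dbp mRNA, and the ratio of Nr1d1 or Dbp to Arntl serves as a mark of phase.

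Promoter windows of 300 bases from RefSeq (build GRCm38.p6, 250 bases before and 50 after an annotated start) were matched by symbol to 9 of the 10 genes, with 12 windows in all. They are shown for the 4 genes in which a clock motif was found, because the loop described above is known to work through motifs of these kinds. Capitals mark the motif matches.
Ciart promoter window, chr3:95882179-95882478, minus strand: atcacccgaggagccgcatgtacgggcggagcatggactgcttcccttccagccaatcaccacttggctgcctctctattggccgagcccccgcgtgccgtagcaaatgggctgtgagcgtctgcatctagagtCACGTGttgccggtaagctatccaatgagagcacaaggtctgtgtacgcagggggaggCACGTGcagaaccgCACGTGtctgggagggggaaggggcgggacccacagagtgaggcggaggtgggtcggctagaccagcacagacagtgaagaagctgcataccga
Cry1 promoter window, chr10:85185005-85185304, minus strand: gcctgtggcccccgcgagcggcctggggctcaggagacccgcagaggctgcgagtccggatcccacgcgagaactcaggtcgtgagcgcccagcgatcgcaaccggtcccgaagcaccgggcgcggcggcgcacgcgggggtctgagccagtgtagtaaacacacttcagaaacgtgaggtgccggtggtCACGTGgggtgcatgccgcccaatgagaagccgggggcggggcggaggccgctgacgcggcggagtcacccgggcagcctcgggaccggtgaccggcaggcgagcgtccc
Per3 promoter window, chr4:151044616-151044915, minus strand: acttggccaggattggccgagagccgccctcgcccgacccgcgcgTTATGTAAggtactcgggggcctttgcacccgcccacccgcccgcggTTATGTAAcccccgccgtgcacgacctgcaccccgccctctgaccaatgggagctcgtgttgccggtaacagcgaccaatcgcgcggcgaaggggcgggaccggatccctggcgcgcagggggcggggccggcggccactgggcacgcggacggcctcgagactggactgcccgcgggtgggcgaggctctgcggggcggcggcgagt
Arntl promoter window, chr7:113207261-113207560, plus strand: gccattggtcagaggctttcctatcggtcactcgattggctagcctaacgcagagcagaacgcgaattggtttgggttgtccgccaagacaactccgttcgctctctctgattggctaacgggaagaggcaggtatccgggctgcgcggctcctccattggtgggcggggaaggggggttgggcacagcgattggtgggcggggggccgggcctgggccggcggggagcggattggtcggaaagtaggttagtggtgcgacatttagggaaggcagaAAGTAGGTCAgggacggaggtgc
The E-box CACGTG, which reads the same on both strands, stood in the windows of 2 of the 9 genes. In Ciart it occurred 3 times, at positions -116, -58 and -44, counted from 0 at the first base after the 250 upstream bases, and in Cry1 once, at -60. The D-box, searched on both strands as TTANNTAA, stood in the Per3 window at -205 and -158, both times as TTATGTAA. The RORE, searched on both strands as AANTN followed directly by GGTCA, stood in 1 of the 2 Arntl windows at position 27 as AAGTAGGTCA. Of all 32851 promoter windows, 7.15% held the E-box, 6.00% the D-box and 0.606% the RORE. None of the matches printed above overlapped another. A match describes the letters of the window and was not tested for binding here.

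Library totals ranged from 17279147 to 18875902 counts, and the 10 clock genes had 84 to 2242 counts per library. Gsdmd, the targeted gene, which encodes the pore-forming protein of pyroptosis, had 1220, 2608 and 2228 counts in knockout libraries 1, 2 and 3. It had 129118, 137849 and 144568 counts in floxed libraries 1, 2 and 3. The direction is that of the genotype labels, which state no level. In CPM (counts scaled to a common library size and composition) it measured 77.4 to 137 in knockout and 6707 to 8272 in floxed libraries. The reason for the high floxed level was not tested. All 7 cardiomyocyte markers were detected in every library. Their summed levels were 18969, 19281 and 9200 CPM in knockout libraries 1, 2 and 3 and 14449 to 21391 CPM in floxed libraries. Knockout library 3 was thus lowest of all. Its fibroblast marker sum of 7032 CPM was the highest, against 3216 to 6132 CPM in floxed libraries. Knockout library 1 stood apart from the other 5 in mitochondrial and atrial genes. Mitochondrially encoded genes took 18.1% of its counts, against 5.48% and 10.2% in the other knockout libraries and 6.70% to 11.2% in the floxed libraries. The atrial gene Myl7 stood at 75.1 CPM in knockout library 1, 5.18 and 0.0998 CPM in knockout libraries 2 and 3, and no more than 0.598 CPM in any floxed library. Other atrial markers, Sln and Myl4, were also highest there, and the fourth, Nppa, which stressed ventricle makes too, was not, so that all 4 summed to 261 to 604 CPM in knockout and 1209 to 1567 CPM in floxed libraries. T and NK cell markers set knockout libraries 2 and 3 apart, with summed levels of 548 and 552 CPM, against 115 CPM in knockout library 1 and 50.8 to 115 CPM in the floxed libraries. Each result below is therefore given with all libraries, and without a single library where that alters it.

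The clock genes did not differ between knockout and floxed hearts beyond the spread of the libraries. Of the 10 genes, 0 passed at an adjusted p under 0.05 (edgeR's quasi-likelihood test, adjusted over all genes by Benjamini-Hochberg), where 0.0121% of all genes tested passed. At an unadjusted p under 0.05 the count was also 0 of 10 in edgeR, against 7.02% of all genes, and it was 0 in DESeq2 and in limma-voom, against 8.73% and 6.21% of all genes. The libraries of the genotypes overlapped for all 10 genes, whereas 11.8% of all genes tested had no overlap. Log2 fold changes, knockout minus floxed, were positive for 7 of the 10 and negative for 3, with a median of 0.32, beside a median of 0.03 over all genes tested. The 95% intervals all included 0. The narrowest, for Clock, ran from -0.61 to 0.31, and the widest, for Dbp, from -0.80 to 1.79. A doubling lies within the intervals of Dbp, Per2, Per3, Nr1d1, Nr1d2 and Ciart, whose upper ends ran from 1.09 to 1.79. A halving lies within that of Cry2, which began at -1.17.

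**Figure D1:**
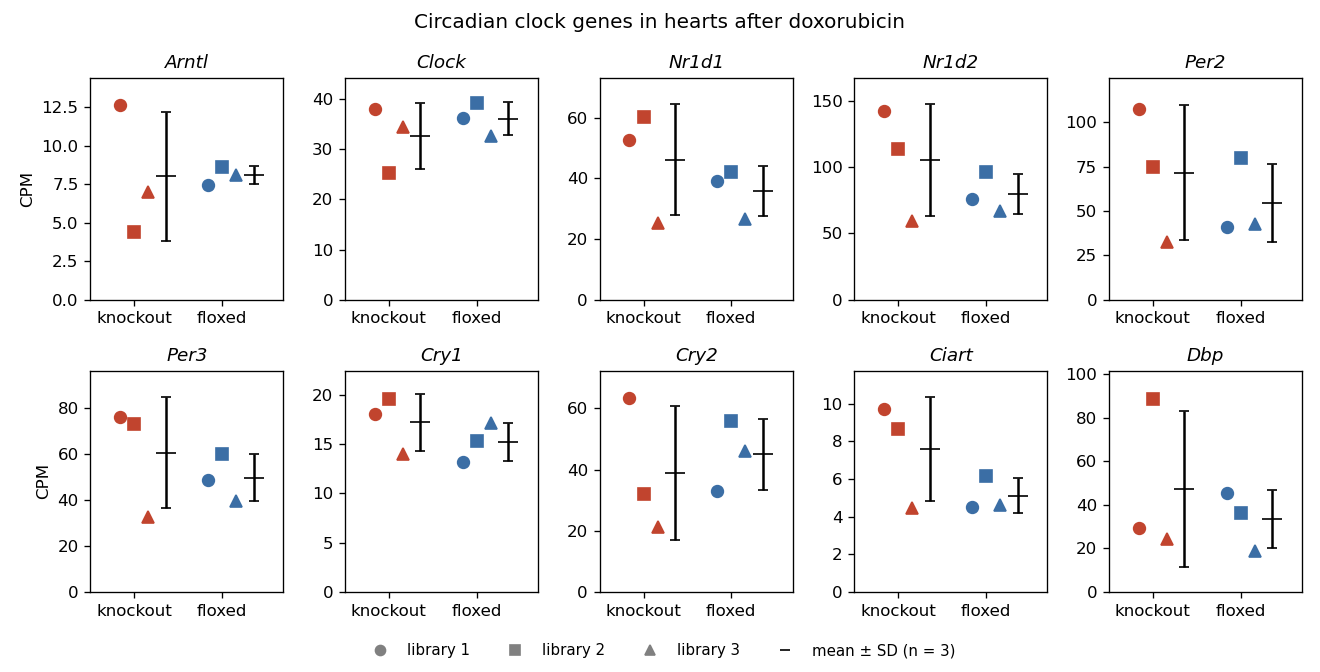
Level of each clock gene in CPM (vertical axis, from 0) in the 3 knockout libraries (red, left) and the 3 floxed libraries (blue, right); symbols mark libraries 1, 2 and 3, and the black line and bar give the mean ± SD (n = 3). Knockout libraries 1 and 2 lie above every floxed library for Nr1d1, Nr1d2, Per3, Cry1 and Ciart, while knockout library 3 is lowest for all of these but Cry1, and the floxed values lie within the knockout range for Arntl.

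The activator genes came first. Arntl (ENSMUSG00000055116, chromosome 7, 112806672 to 112913333, plus strand in the deposited table, whose positions are not those of GRCm38.p6 and carry no stated build) encodes BMAL1. It measured 12.6, 4.40 and 6.99 CPM in knockout libraries 1, 2 and 3 and 7.48, 8.64 and 8.10 CPM in floxed libraries 1, 2 and 3. The highest and the lowest of the 6 values were both knockout libraries, and all floxed values lay between them. The knockout mean was 8.01 ± 4.21 CPM and the floxed mean 8.07 ± 0.581 CPM (SD, n = 3 each), with a log2 fold change of -0.02 ± 0.39 (SE; edgeR adjusted p = 0.997). The exact 95% Poisson interval for knockout library 2, which covers counting error only, was 3.51 to 5.45 CPM, below the intervals of the other 5 libraries, the lowest of which began at 5.88 CPM. That of knockout library 1 was 10.9 to 14.5 CPM, above the others, which ended at 10.2 CPM. Clock (ENSMUSG00000029238, chromosome 5, 76357715 to 76452639), the partner of BMAL1, varied less. It measured 38.1, 25.2 and 34.4 CPM in knockout libraries 1, 2 and 3, against 36.3, 39.3 and 32.7 CPM in the floxed libraries. Knockout library 2 was again lowest, and the log2 fold change was -0.15 ± 0.20 (SE; edgeR adjusted p = 0.945). Few reads fell on genes that overlap these genes. Ube2n-ps1, a pseudogene within Clock on the same strand, had 13 to 26 counts in knockout and 13 to 19 in floxed libraries. Gm43658, also within Clock, had at most 1 count, and Gm45355, within Arntl, had 0 in every library.

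The REV-ERB genes, repressors of Arntl, were high in knockout libraries 1 and 2 and low in knockout library 3. Nr1d1 (ENSMUSG00000020889, chromosome 11, 98658758 to 98666159) measured 52.8, 60.2 and 25.4 CPM in knockout libraries 1, 2 and 3, against 39.2, 42.1 and 26.5 CPM in the floxed libraries. Its knockout libraries held both the highest values and the lowest. The SD was 18.3 CPM in knockout and 8.29 CPM in floxed hearts (n = 3 each), with a log2 fold change of 0.36 ± 0.34 (SE; edgeR adjusted p = 0.912). Nr1d2 (ENSMUSG00000021775, chromosome 14, 4230569 to 4265642) was the highest of the 10 genes in CPM, at 142, 114 and 59.2 CPM in knockout libraries 1, 2 and 3 and 76.0, 96.2 and 66.9 CPM in the floxed libraries. It had the same pattern, with knockout libraries 1 and 2 above and knockout library 3 below every floxed library, and a log2 fold change of 0.40 ± 0.33 (SE; edgeR adjusted p = 0.896). Nr1d1 shares 1075 bases of the deposited positions with Thra, a thyroid hormone receptor gene on the opposite strand, and whether reads were counted by strand is not stated. Thra had 1292, 1048 and 816 counts in knockout libraries 1, 2 and 3, against counts of 1049, 1349 and 1213 in floxed libraries 1, 2 and 3, an order unlike that of Nr1d1.

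The period genes, which encode the PER repressors, were spread in the same way. Per2 (ENSMUSG00000055866, chromosome 1, 91343704 to 91387046) measured 108, 75.1 and 32.3 CPM in knockout libraries 1, 2 and 3, against 41.2, 80.2 and 42.7 CPM in the floxed libraries. Floxed library 2 lay among the high knockout libraries, and knockout library 3 was lowest. The log2 fold change was 0.39 ± 0.46 (SE; edgeR adjusted p = 0.935). Per3 (ENSMUSG00000028957, chromosome 4, 151088109 to 151129122), whose promoter window holds both D-boxes shown above, measured 76.1, 73.1 and 32.6 CPM in knockout libraries 1, 2 and 3, against 48.9, 60.1 and 39.7 CPM in the floxed libraries. Its knockout libraries thus surrounded the floxed ones, with a log2 fold change of 0.29 ± 0.34 (SE; edgeR adjusted p = 0.935). The deposited positions place Per3 within Camta1, a calmodulin-binding transcription activator gene on the same strand, which had 1284, 822 and 1163 counts in knockout libraries 1, 2 and 3 against counts of 1230, 1715 and 1388 in the floxed libraries.

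The cryptochrome genes differed from each other in pattern. Cry1 (ENSMUSG00000020038, chromosome 10, 84967564 to 85020928), with its E-box, was among the most even of the 10, at 18.02, 19.5 and 14.0 CPM in knockout libraries 1, 2 and 3 and 13.2, 15.3 and 17.1 CPM in the floxed libraries. Its highest value was 1.48 times its lowest, the smallest such ratio among the clock genes, and its log2 fold change was 0.18 ± 0.20 (SE; edgeR adjusted p = 0.935). Cry2 (ENSMUSG00000068742, chromosome 2, 92233991 to 92264388) measured 63.5, 32.1 and 21.3 CPM in knockout libraries 1, 2 and 3, against 32.9, 55.7 and 46.2 CPM in the floxed libraries. Here knockout library 1 was highest and knockout libraries 2 and 3 were below all floxed libraries. The log2 fold change was -0.21 ± 0.41 (SE; edgeR adjusted p = 0.964). The noncoding gene D930015M05Rik, within Cry2 on the opposite strand, had 3 to 10 counts in knockout and 5 to 9 in floxed libraries.

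Ciart and Dbp are outputs of the E-box loop. Ciart (ENSMUSG00000038550, chromosome 3, 95785815 to 95789563), which encodes the repressor CHRONO and whose window holds 3 E-boxes, measured 9.71, 8.64 and 4.44 CPM in knockout libraries 1, 2 and 3, against 4.52, 6.18 and 4.62 CPM in the floxed libraries. Its mean was 7.60 ± 2.78 CPM in knockout and 5.11 ± 0.931 CPM in floxed hearts (SD, n = 3 each). The log2 fold change of 0.57 ± 0.35 (SE) was the largest and its unadjusted p the smallest of the 10, with an edgeR adjusted p of 0.843. Ciart lies within the span of the noncoding gene C920021L13Rik on the opposite strand, which had 120, 83 and 75 counts in knockout libraries 1, 2 and 3, against counts of 65, 74 and 66 in the floxed libraries. Dbp (ENSMUSG00000059824, chromosome 7, 45354512 to 45359627), the D-box activator, measured 29.2, 88.6 and 24.4 CPM in knockout libraries 1, 2 and 3, against 45.6, 36.2 and 19.0 CPM in the floxed libraries. Knockout library 2 was nearly alone at the top, at 1693 counts, while knockout libraries 1 and 3 lay inside the floxed range. The log2 fold change was 0.50 ± 0.55 (SE; edgeR adjusted p = 0.934). Dbp shares 737 bases with Sphk2, a sphingosine kinase gene on the opposite strand, which stayed between 711 and 867 counts in knockout and between 754 and 971 counts in floxed libraries.

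**Figure D2:**
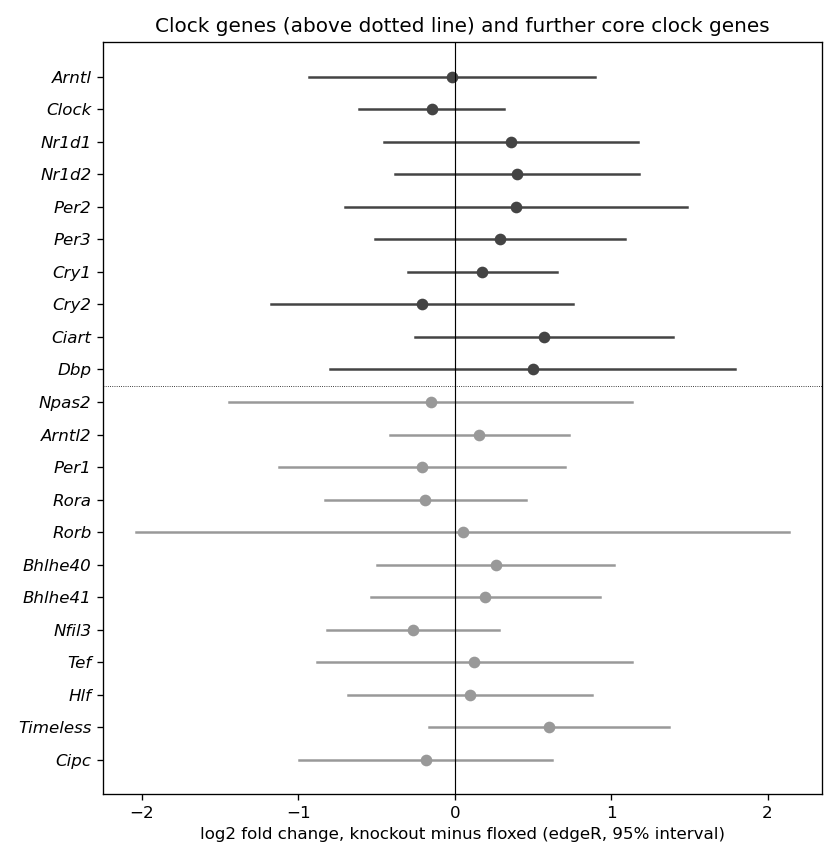
Log2 fold change of each gene, knockout minus floxed (horizontal axis), from edgeR with its 95% interval (line), for the 10 clock genes above the dotted line and 12 further core clock genes below it. Every interval crosses 0, with Ciart at 0.57 highest among the 10 and Cry2 at -0.21 lowest.

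The ratio of the highest to the lowest library was larger in knockout than in floxed hearts for each of the 10 clock genes, and for 77.3% of the 11920 tested genes with a mean of at least 5 CPM and no library at 0. For Arntl it was 2.87 in knockout and 1.16 in floxed hearts, for Per2 3.34 and 1.95, and for Dbp 3.63 and 2.40. Over all 6 libraries the ratio was 4.67 for Dbp, above that of 93.6% of the 11922 tested genes with a mean of at least 5 CPM, whose median ratio was 1.73. At the other end were Clock, at 1.56, and Cry1, each below the median gene.

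Leaving out a single library turned the sign of 5 of the 10 log2 fold changes, through different libraries, and Per3, Cry1, Nr1d1, Nr1d2 and Ciart stayed positive throughout. Without knockout library 3, Nr1d1, Nr1d2, Per3, Cry1 and Ciart had no overlap and were higher in knockout, 5 of 10, where 12.6% of all genes were. Of these, 4 reached an unadjusted p under 0.05 in edgeR, where 4.43% of all genes did so as higher. Their log2 fold changes without that library were 0.65 for Nr1d1, 0.68 for Nr1d2, 0.59 for Per3 and 0.84 for Ciart, and their adjusted p-values ran from 0.508 to 0.536. Knockout libraries 1 and 2 lay above every floxed library for all 5 genes, so the omission itself removed the overlap. These genes belong to the same loop and share the same high libraries, so they are not independent, and no enrichment was tested. Without knockout library 1, Arntl and Cry2 had no overlap and were lower in knockout, 2 of 10, a share near the 17.0% of all genes. Cry2 then had a log2 fold change of -0.77 and an unadjusted p of 0.0250 in edgeR (adjusted p = 0.1905), where 8.58% of all genes were lower at an unadjusted p under 0.05. The log2 fold changes of Nr1d1, Nr1d2, Per3 and Ciart were 0.23, 0.0967, 0.0717 and 0.34 without that library. Without knockout library 2 the log2 fold change of Dbp was -0.33. In none of these fits did a clock gene pass after adjustment.

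The relation of Arntl to Dbp and Nr1d1 was then taken in each library. The log2 ratio of Dbp to Arntl was 1.20, 4.30 and 1.79 in knockout libraries 1, 2 and 3, against log2 ratios of 2.59, 2.05 and 1.217 in floxed libraries 1, 2 and 3. Knockout library 2 stood far above the highest floxed library, while knockout library 1 was the lowest of all, just under floxed library 3. In counts, there were 20.2 Dbp reads for each Arntl read in knockout library 2 and 2.31 in knockout library 1, against 2.34 to 6.09 in the floxed libraries. The mean log2 ratio was 2.43 ± 1.65 in knockout and 1.95 ± 0.69 in floxed hearts (SD, n = 3 each). Their difference of 0.48 was within the spread, with a two-sided exact permutation p of 0.9, where the smallest p that 3 against 3 allows is 0.1. The log2 ratio of Nr1d1 to Arntl was 2.05, 3.74 and 1.85 in knockout libraries 1, 2 and 3, against log2 ratios of 2.37, 2.27 and 1.698 in the floxed libraries. It was again highest in knockout library 2, and the other 5 libraries lay within 0.68 of one another. The difference of means was 0.43, with a two-sided exact permutation p of 0.8. Both differences turned negative without knockout library 2, at -0.46 for Dbp and -0.16 for Nr1d1.

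**Figure D3:**
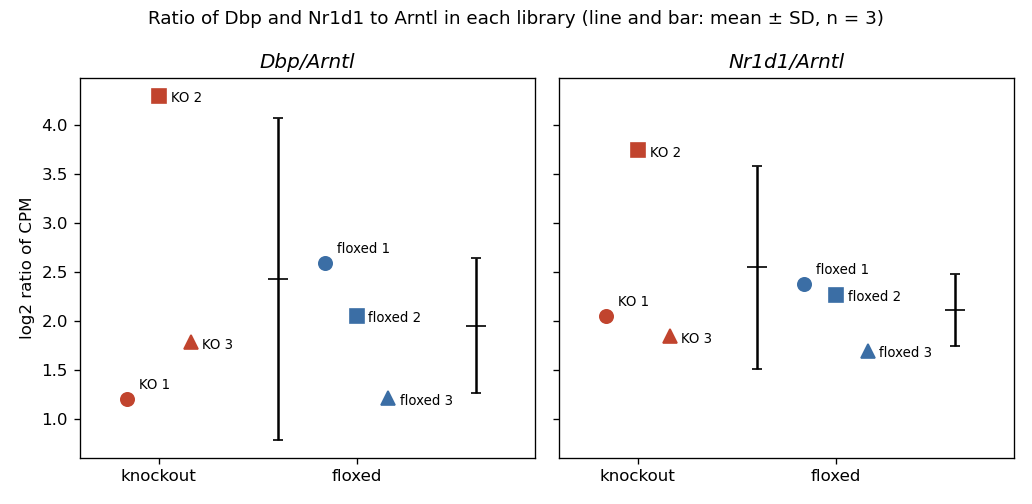
Log2 ratio of the CPM of Dbp (left panel) and Nr1d1 (right panel) to that of Arntl (vertical axis) in each knockout (red) and floxed (blue) library; black lines and bars give the mean ± SD (n = 3). Knockout library 2 lies at 4.30 for Dbp/Arntl and 3.74 for Nr1d1/Arntl, above all other libraries, and the remaining knockout libraries lie within or just below the floxed range.

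No relation of Arntl to another clock gene across the 6 libraries passed after adjustment, and most depended on single knockout libraries. Arntl was set against each of the other 9 genes in log2 CPM, with exact permutation p-values adjusted by Benjamini-Hochberg over the 9. For Dbp, Pearson's r was -0.66 (exact p = 0.151, adjusted 0.454) and Spearman's rho -0.37 (exact p = 0.497, adjusted 0.639). For Nr1d1, r was -0.10 (exact p = 0.864, adjusted 0.899) and rho 0.086 (exact p = 0.919, adjusted 1). Knockout libraries 1 and 2 lay farthest from the median of Arntl, and without them r was 0.063 for Dbp and 0.52 for Nr1d1. The negative r of Dbp rested on knockout library 2, since it was 0.00552 without that library alone and -0.77 without knockout library 1 alone. That of Nr1d1 was 0.78 without knockout library 2 and -0.64 without knockout library 1. With the mean of each genotype removed, r with Arntl over the 6 libraries was -0.65 for Dbp and -0.05 for Nr1d1. Clock had the highest r with Arntl of the 9, at 0.86 (exact p = 0.0417, adjusted 0.375; rho 0.77, exact p = 0.103, adjusted 0.463), and 477 of all genes tested had a higher one. Without the 2 farthest libraries its r was 0.45. Cry2 had the highest rho, at 0.94 (exact p = 0.0167, adjusted 0.15), with an r of 0.67 (exact p = 0.135, adjusted 0.454) and of 0.99 without the 2 farthest libraries. The remaining 5 genes, Per2, Per3, Cry1, Nr1d2 and Ciart, had r between -0.14 and 0.31, none passing. Each of these was negative without knockout library 1, at -0.73 for Ciart and -0.54 for Nr1d2, and positive without knockout library 2, at 0.97 for Ciart and 0.95 for Nr1d2. All 6 libraries share the scaling to library composition, and 464 genes had an absolute r above 0.9 with Arntl at this number of libraries.

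Deposited FPKM values, which are per gene length, allow levels to be compared between genes. Averaged over the 6 libraries, Nr1d2 was highest at 16.8 FPKM, followed by Dbp at 13.6, Nr1d1 at 13.2, Per2 at 10.6, Cry2 at 6.51, Per3 at 5.66, Cry1 at 4.83, Ciart at 2.77, Clock at 2.49 and Arntl at 1.06 FPKM. Neighbours in this order overlapped in their ranges over the libraries in all but 2 places. Cry1, at 4.06 to 5.92 FPKM, lay wholly above Ciart, at 2.04 to 3.92 FPKM, and Clock, at 1.86 to 2.75 FPKM, lay wholly above Arntl, at 0.59 to 1.53 FPKM. Dbp had the widest range, from 6.33 to 30.0 FPKM.

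Further genes of the core loop, 13 in number, gave the same null result between genotypes. Of these, 0 passed in edgeR and 0 had an unadjusted p under 0.05, 7 log2 fold changes were positive and 6 negative, and the median was 0.05. Timeless, Nfil3 and Bhlhe40 are named by the rule of smallest p. Timeless, also a replication fork gene, measured 36.2, 75.0 and 33.4 CPM in knockout libraries 1, 2 and 3, against 33.3, 33.7 and 28.2 CPM in the floxed libraries, with a log2 fold change of 0.60 ± 0.32 (SE; edgeR adjusted p = 0.796). The 5 markers of dividing cells, all detected in every library, summed to 30.7, 213 and 223 CPM in knockout libraries 1, 2 and 3, against 24.7 to 48.9 CPM in the floxed libraries. All 5 had positive log2 fold changes, with a median of 2.03, though the sum in knockout library 1 lay within the floxed range. At an unadjusted p under 0.05 in edgeR, 4 of the 5 were higher in knockout, where 725 of all 16591 genes tested were. The part of dividing cells in the level of Timeless was not tested. Nfil3, a D-box repressor that opposes DBP, measured 19.5, 19.3 and 27.3 CPM in knockout libraries 1, 2 and 3, against 20.8, 26.3 and 32.5 CPM in the floxed libraries. Bhlhe40, an E-box repressor, was low in knockout library 1 and high in the other knockout libraries, at 38.8, 82.5 and 84.3 CPM in knockout libraries 1, 2 and 3, against 70.5, 49.2 and 51.6 CPM in the floxed libraries. The following were singled out after their values were seen. Tef, a relative of Dbp that binds the same D-box, was highest in knockout library 1 rather than 2. It measured 315, 221 and 92.8 CPM in knockout libraries 1, 2 and 3, against 170, 235 and 171 CPM in the floxed libraries. Per1, a PER gene that also responds to glucocorticoids, measured 279, 119 and 119 CPM in knockout libraries 1, 2 and 3, against 156, 246 and 195 CPM in the floxed libraries, a pattern closer to Cry2 than to Per2 or Per3 in that knockout library 2 was low. Npas2, a paralogue of Clock, was low throughout, at 1.598 to 5.01 CPM in knockout and 2.13 to 4.86 CPM in floxed libraries.

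**Figure D4:**
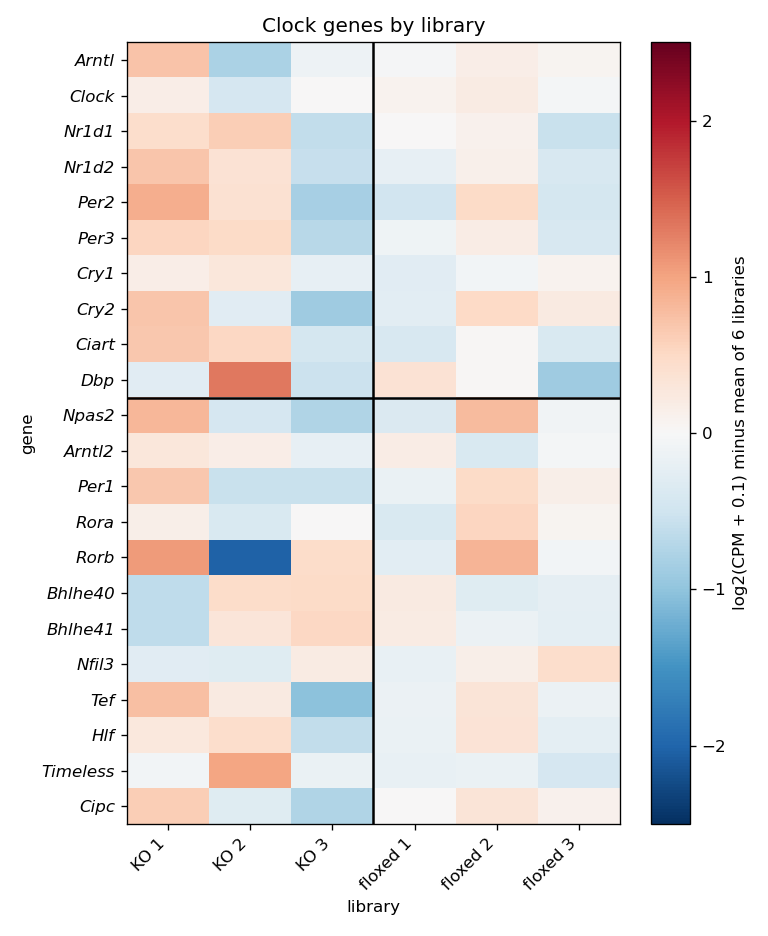
Level of the 10 clock genes (above the line) and 12 further core clock genes (below) in each library, as log2(CPM + 0.1) minus the mean of the 6 libraries, on a colour scale that ends 2.5 below (blue) and 2.5 above (red) that mean; knockout libraries are left of the line and floxed libraries right of it. Nr1d1, Nr1d2, Per2, Per3 and Ciart are red in knockout libraries 1 and 2 and blue in knockout library 3, and Dbp is red mainly in knockout library 2. Floxed library 2 also lies above the mean for Per2, at 80.2 CPM against 75.1 CPM in knockout library 2, and less so for Nr1d1, Nr1d2 and Per3.

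Markers of other cells moved with some of these patterns. The 5 endothelial markers, all detected in every library, summed to 1483, 1079 and 527 CPM in knockout libraries 1, 2 and 3, against 866, 1012 and 752 CPM in the floxed libraries. In this sum, knockout libraries 1 and 2 were above and knockout library 3 below every floxed library, as for Nr1d2 and Per3. The single markers were not uniform, with 4 log2 fold changes positive and 1 negative, from -0.37 to 0.59. The 4 smooth muscle and pericyte markers summed to 622 to 988 CPM in knockout and 546 to 732 CPM in floxed libraries. In bulk tissue, fewer cells of a type and less RNA per cell cannot be told apart, and the part of these cells in the clock gene levels was not tested. Genes that respond to glucocorticoids or fasting, among them Per1, had a median log2 fold change of -0.62 over 17 members, with 16 negative and 0 passing or at an unadjusted p under 0.05 in edgeR. Their median level, in log2 relative to the floxed mean, was 0.51, -1.24 and -0.91 in knockout libraries 1, 2 and 3, against levels of -0.85, 0.45 and 0.51 in the floxed libraries, so that knockout library 1 and floxed libraries 2 and 3 were high. Named by smallest p, Dusp1, a phosphatase that restrains MAP kinases, had a log2 fold change of -0.60 ± 0.29 (SE; edgeR adjusted p = 0.757), and Angptl4, an inhibitor of lipoprotein lipase, of -0.71 ± 0.37 (SE; edgeR adjusted p = 0.785). Without knockout library 1, Cdkn1a, which encodes the cell cycle inhibitor p21, passed as lower in knockout (log2 fold change -1.13, edgeR adjusted p = 0.0490), where 0.514% of all genes did. The part of this difference between libraries in the clock genes was not tested.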

How the data were processed

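Heart RNA was sequenced as 6 stranded mRNA libraries, 3 per genotype, per the labels' protocols. The deposited tables hold unnormalised counts, in whole numbers, for 35618 genes and the authors' FPKM for 35606. The submitters' processing notes name HISAT2 2.1.0, featureCounts 1.6.2, StringTie 1.3.4d and the build mm10 without saying which made which table. Whether counting used strand is not stated, so overlapping genes are uncertain. No columns of other samples were present (0).

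The count model was edgeR 4.0.16 (R 4.3.3). The filter was filterByExpr at a minimum count of 10 (16591 genes, 99.8% of counts), scaling was by TMM, and the test was the robust quasi-likelihood F test with genotype as the only term, Benjamini-Hochberg adjusted over all genes, at a threshold of 0.05. Standard errors came from the F statistic. Ratios and correlations used log2 CPM with a prior count of 2. Intervals for counts are exact Poisson at 95%, covering counting error only. Alternatives were RLE scaling, other filters, DESeq2 1.42.0, limma-voom (limma 3.58.1), limma on log2 FPKM, a replicate block, library sizes without mitochondrial genes and Gsdmd, no robust estimation, and each library left out. In a test on data simulated for knockout against floxed (16591 genes), the share of altered genes that edgeR called was 11.8% at a log2 change of 1, 74.6% at 2 and 93.4% at 4.

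The clock genes and all further lists were chosen with earlier results of these data known. Named were all clock genes, Gsdmd, genes overlapping a clock gene, up to 4 members of each list with the smallest p, and the 5 genes with the highest and the 5 with the lowest r to Arntl among protein-coding genes with a mean of at least 10 CPM. A few genes of the lists are counted in them but not reported here by name or drawn. Figures were drawn with matplotlib 3.10.9.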

Additional observations from a re-analysis of the deposited data

How the results depend on the processing

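Over 16 alternatives, 0 of the 10 clock genes passed in any, the lowest adjusted p being 0.1905, and 153 of 160 log2 fold changes kept their sign. The 7 that turned all came from leaving out a library. Over those fits the ranges were -0.52 to 0.27 for Arntl, -0.29 to 0.00181 for Clock, -0.0458 to 0.77 for Per2, -0.77 to 0.0861 for Cry2 and -0.33 to 0.81 for Dbp, while Per3, Cry1, Nr1d1, Nr1d2 and Ciart stayed positive. The difference in log2 Dbp/Arntl ranged from -0.46 to 1.09 and in log2 Nr1d1/Arntl from -0.16 to 0.78. From 0 to 4 clock genes had an unadjusted p under 0.05, and 0 to 5 had no overlap. Of all genes, edgeR called 0 higher and 2 lower with all libraries, and 0 to 412 higher and 0 to 88 lower when a library was left out, the highest of both without knockout library 1. DESeq2 called 123 higher and 120 lower, limma-voom 1 lower, and edgeR without a filter on low counts 10 lower. List medians ranged from -0.31 to 0.14 for the further core clock, -0.14 to -0.0114 for clock protein turnover, -0.65 to -0.13 for heart outputs and -1.05 to -0.33 for glucocorticoid and fasting genes, each lowest without knockout library 1, where 1 heart output and 2 glucocorticoid and fasting genes were called, against 0 in the other 5 fits. The cause of these shifts was not tested.

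The labels number the libraries 1 to 3 in both genotypes, but same-numbered libraries did not deviate together. The correlations of their deviations from the group means were -0.57, -0.31 and 0.04 for numbers 1, 2 and 3. No knockout library correlated best with the floxed library of its own number. With the replicate block, 0 genes were called lower, against 2, and 0 clock genes passed. A balanced block cannot alter the differences of 0.48 for Dbp/Arntl and 0.43 for Nr1d1/Arntl. By exact flipping of signs within library numbers, each had a two-sided p of 0.75. Exact permutation of the libraries between genotypes gave 0.9 and 0.8. The sign test has a smallest possible p above the 0.1 of the permutation test, so these p-values are not directly comparable. Counts of Arntl (84 to 199) and Ciart (85 to 165) limit the precision of their levels most.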

Other observations

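Genes that turn over or modify clock proteins showed no called difference between the genotypes. Of 18 listed, 17 had a row and 16 were tested, with 0 passing in edgeR and 0 at an unadjusted p under 0.05. Their log2 fold changes ran from -0.31 to 0.19, 10 of them negative, with a median of -0.05. Skp1, a subunit of the SCF ubiquitin ligases, measured 124, 122 and 98.2 CPM in knockout libraries 1, 2 and 3, against 149, 128 and 148 CPM in the floxed libraries. It had a log2 fold change of -0.30 ± 0.18 (SE; edgeR adjusted p = 0.835). Its genotypes did not overlap, as was so for 992 of all 16591 genes tested that were lower in knockout. Gsk3b, Huwe1 and Btrc, the next by p, had log2 fold changes of -0.22, 0.19 and -0.14.

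Genes that the clock is known to drive in heart or other tissues had a median log2 fold change of -0.22 over 16 members, 13 of them negative and 0 passing or at an unadjusted p under 0.05 in edgeR. By smallest p, Cdkn1a, Por, Gys1 and Dgat2 had log2 fold changes of -0.65, -0.34, -0.50 and -0.61. Klf15, a clock-driven transcription factor of heart metabolism, and Kcnip2, a potassium channel subunit under its control, were singled out after their values were seen. Klf15 measured 67.9, 10.5 and 11.8 CPM in knockout libraries 1, 2 and 3, against 17.0, 66.8 and 41.3 CPM in the floxed libraries. Kcnip2 measured 147, 39.6 and 10.3 CPM in knockout libraries 1, 2 and 3, against 40.3, 113 and 54.8 CPM in the floxed libraries. Both were high in knockout library 1 and floxed library 2.

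Temperature-responsive genes, which are known to follow and to set tissue clocks, showed 0 calls among 8 in edgeR and 0 at an unadjusted p under 0.05. The heat shock genes Hspa1a and Hspa1b, near-identical copies whose split is uncertain, stood at 8.95 and 5.52 CPM in knockout library 1, against 28.9 to 31.2 and 34.0 to 40.2 CPM in knockout libraries 2 and 3 and 24.4 to 26.3 and 33.4 to 41.8 CPM in the floxed libraries. Cirbp, a cold-inducible RNA-binding protein, measured 161, 87.5 and 48.3 CPM in knockout libraries 1, 2 and 3, against 84.8, 163 and 134 CPM in the floxed libraries.

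Over the 6 libraries, and as a description only, the genes outside the lists whose log2 CPM was most like that of Arntl were Arhgef12, Snx14, Ttll7, Prune2 and Ypel2, with Pearson's r of 0.98 to 0.99 among 9825 protein-coding genes. Ttll7 measured 25.1, 8.12 and 12.4 CPM in knockout libraries 1, 2 and 3, against 13.2, 18.2 and 14.3 CPM in the floxed libraries. The most unlike were Rbm34, Tuba4a, Prmt1, Irf2bp1 and Ccdc115, with r of -0.98 to -0.997, and Tuba4a, a tubulin, measured 83.6, 164 and 116 CPM in knockout libraries 1, 2 and 3, against 113, 104 and 115 CPM in the floxed libraries.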
